A study of Mus musculus with 30 samples.

Results

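The proteasome is the protease complex that degrades most ubiquitin-tagged proteins of a cell, and its subunit genes were followed here in the gastrocnemius muscle of mice. The members were all genes whose symbol is Psm, a letter from a to g and a number, leaving out the immunoproteasome genes Psmb8, Psmb9 and Psmb10. Of the 45 symbols that matched, 43 passed the expression limits (a mean over 20 reads and a mean over 0.5 FPKM, reads scaled by exon length and library size) and were among the 12030 genes tested. Psma8 and Psmb11 did not pass. The 43 members were 14 genes of the core particle, 17 of the regulatory particle, and 12 of other classes, which encode assembly chaperones, activators and an inhibitor.

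The core particle is a barrel of stacked rings, in which alpha subunits form the gates at both ends and beta subunits enclose the proteolytic chamber. The regulatory particle caps the barrel: a ring of ATPases unfolds the substrate and threads it inside, non-ATPase subunits of the base bind ubiquitin chains and their shuttles, and the lid removes the chains. In skeletal muscle the complex degrades proteins that ubiquitin ligases such as the product of Trim63 (MuRF1) mark during atrophy, and subunit genes are induced together in several forms of muscle wasting. The transcription factor encoded by Nfe2l1 is known to raise subunit transcription when proteasome capacity falls short, and it binds an antioxidant response element.

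Male wild-type C57BL/6J mice with running wheels in their cages, about 14 weeks old at the start, were kept for 64 weeks either under a fixed cycle of 12 h light and 12 h dark (LD group, 14 mice) or under the same cycle advanced by 8 h every 4 days (ADV group, 16 mice). Gastrocnemius was collected together with plantaris when both groups were on the same light phase, over a range of hours within the light period. Poly(A) RNA was sequenced, 1 library per mouse. The question for these genes was whether chronic misalignment changed the expression of the degradation machinery, and whether core and regulatory particle genes moved alike.

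Reads counted on exons numbered 19015401 to 28512674 per LD mouse and 18875468.5 to 25699603.5 per ADV mouse. The share of each library that fell on exons was 90.91% to 91.3% in LD mice and 91.14% to 92.67% in ADV mice, with 12 of 16 ADV mice above every LD mouse. The 8 markers of skeletal muscle fibers were all expressed, and none was called between the groups. Of the other cell types looked at, 0 of 4 slow fiber, 0 of 5 adipocyte, 0 of 5 Schwann cell and 0 of 5 tested leukocyte markers were called. Their summed levels still differed in the median. Slow fiber sums were 24.9 to 578.6 FPKM (median 337.2) in LD and 141.1 to 1246.5 FPKM (median 458.3) in ADV mice. Adipocyte medians were 712 FPKM in LD and 902.2 FPKM in ADV mice, and Schwann cell medians 32.04 and 41.8 FPKM. The leukocyte median went the other way, with 63.3 FPKM in LD and 54.3 FPKM in ADV mice. For endothelium, 1 of 5 markers was called higher in ADV mice, with a summed level of 50.03 to 69.4 FPKM in LD and 58.5 to 75.5 FPKM in ADV mice. For fibroblasts, 1 of 5 was called lower, with sums of 256 to 334 FPKM in LD and 220 to 348 FPKM in ADV mice. Whether these cells had a part in the results that follow was not tested.

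Promoters of the members whose change between the groups passed the test are printed to show where the antioxidant response element core stands in them. That of the catalytic gene Psmb6, whose change did not pass, is printed as well. Each run is the 250 bases before the RefSeq start of the gene in GRCm38.p6, read 5′ to 3′ on the gene's strand, and capitals mark TGACNNNGC found on either strand. The windows are chr14:54617996-54618245 on the minus strand for Psmb5, chr11:70525107-70525356 on the plus strand for Psmb6, chr5:123227940-123228189 on the plus strand for Psmd9, chr3:94886959-94887208 on the minus strand for Psmb4 and chr11:80428365-80428614 on the plus strand for Psmd11.
Psmb5 promoter: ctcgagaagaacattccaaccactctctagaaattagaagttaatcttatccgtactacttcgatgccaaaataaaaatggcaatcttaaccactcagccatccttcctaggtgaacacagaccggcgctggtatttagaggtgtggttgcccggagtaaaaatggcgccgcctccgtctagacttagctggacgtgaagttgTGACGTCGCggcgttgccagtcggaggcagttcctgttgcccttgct
Psmb6 promoter: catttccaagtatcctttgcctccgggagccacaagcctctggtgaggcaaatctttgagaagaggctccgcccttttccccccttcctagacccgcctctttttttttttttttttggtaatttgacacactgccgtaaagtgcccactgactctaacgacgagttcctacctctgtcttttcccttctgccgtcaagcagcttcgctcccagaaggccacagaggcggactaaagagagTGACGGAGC
Psmd9 promoter: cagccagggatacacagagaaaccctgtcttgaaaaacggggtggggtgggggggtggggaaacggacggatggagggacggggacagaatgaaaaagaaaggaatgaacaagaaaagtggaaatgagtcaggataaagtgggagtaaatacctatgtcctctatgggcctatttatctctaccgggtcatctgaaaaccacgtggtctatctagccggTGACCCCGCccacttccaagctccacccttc
Psmb4 promoter: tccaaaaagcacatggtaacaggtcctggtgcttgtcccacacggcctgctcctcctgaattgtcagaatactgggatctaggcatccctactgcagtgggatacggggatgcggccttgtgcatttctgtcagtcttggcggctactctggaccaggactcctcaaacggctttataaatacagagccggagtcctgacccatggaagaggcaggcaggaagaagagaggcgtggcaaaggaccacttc
Psmd11 promoter: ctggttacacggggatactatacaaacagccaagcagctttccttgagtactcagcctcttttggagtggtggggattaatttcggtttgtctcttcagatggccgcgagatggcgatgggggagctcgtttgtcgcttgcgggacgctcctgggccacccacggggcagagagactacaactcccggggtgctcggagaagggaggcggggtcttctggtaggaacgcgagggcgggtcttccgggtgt

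The element starts at position -47 from the gene's start in Psmb5, -9 in Psmb6 and -31 in Psmd9, and these letters are not in the windows of Psmb4 and Psmd11. In 300 bases around the start, which include 50 bases of the transcript, 36 of the 43 members had a RefSeq promoter. TGACNNNGC stood in 6 of these 36 (16.7%), namely Psmb5, Psmb6, Psmc6, Psmd9, Psmd12 and Psme4. It was in 12.4% of all 32851 promoters and in 17.4% of the 8971 tested genes that had a promoter. A member with more than 1 promoter counted if any of them held the motif, while the share of all promoters is per promoter. The CCAAT box was in 12 of 36 members (33.3%), against 37.4% of all promoters and 42.7% of these tested genes. The E-box CACGTG, which CLOCK and BMAL1 bind, was in 3 (8.33%, against 7.15% of all promoters and 12.1% of these tested genes). The heat shock unit GAANNTTC was in 2 (5.56%, against 7.86% and 6.97%). Each search read both strands, a base could count for more than 1 motif, and none of these shares was tested. Of the members called between the groups, Psmd9 also held CACGTG and Psmb5 GAANNTTC. A match gives no information on binding.

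Between the schedules the proteasome genes differed little, and the differences that passed the test were small rises in the ADV group. By edgeR's quasi-likelihood test with Benjamini-Hochberg adjustment over all genes (FDR under 0.05), 4 of the 43 members were higher in ADV mice, beside 5.61% of all genes tested, and 0 were lower, beside 5.2%. The members that rose were Psmb5 and Psmb4 of the core beta ring, Psmd11 of the regulatory lid and Psmd9, a chaperone of base assembly. DESeq2, the tool of the study's methods, added Psmb6 and Psma7 and called 6 members higher (beside 7.27% of all genes) and 0 lower (beside 6.69%). None of those called by edgeR reached a fold change of 1.3, a limit that 1.45% of all genes passed upward and 0.648% downward. At an unadjusted p under 0.05 there were 17 members, 15 higher and 2 lower, which is 39.5% of the members beside 30.1% of all genes. The log2 fold change (ADV over LD) was above 0 for 35 of 43 members (81.4%, beside 50.8% of all genes), with a median of 0.06 beside 0.003 over all genes. In whole muscle, a change in the RNA of each cell and a change in the share of the cells that express a gene cannot be told apart.

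**Figure D1:**
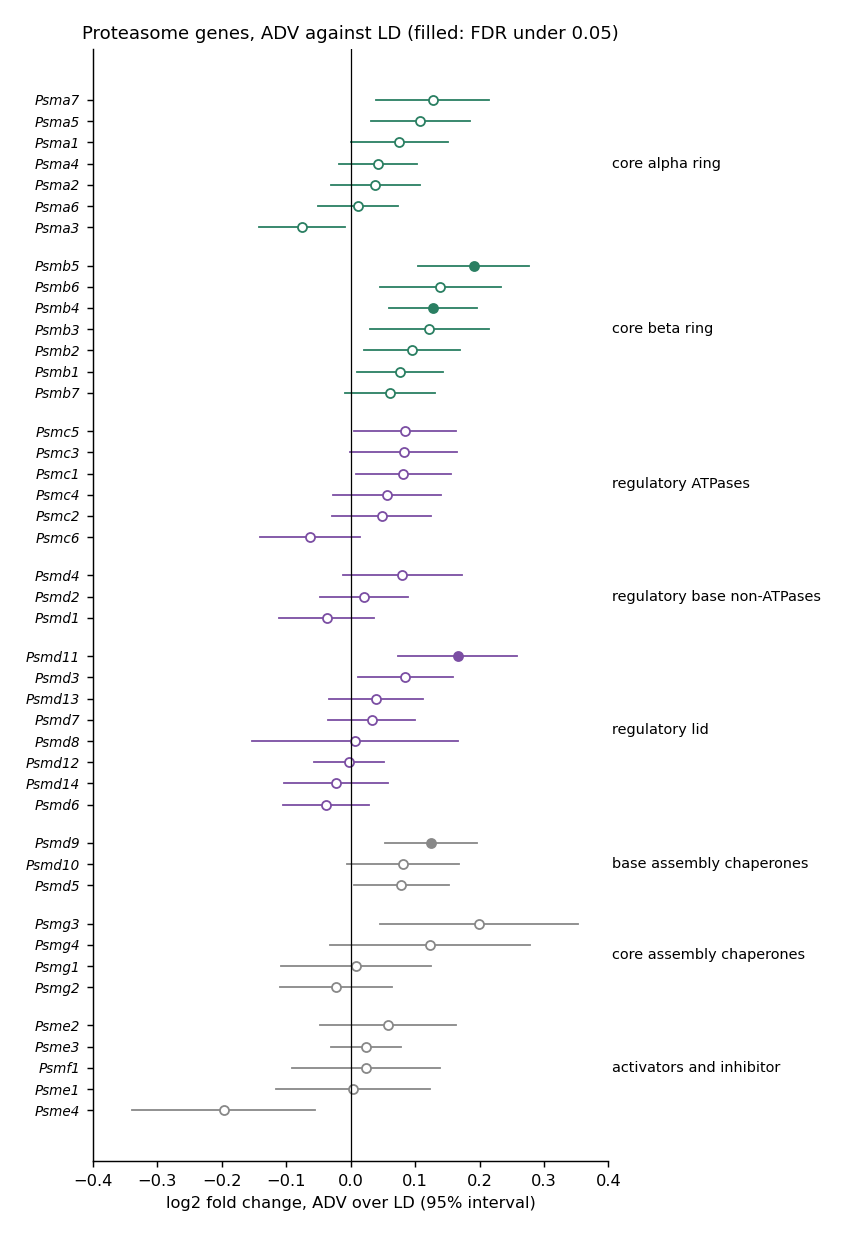
Log2 fold change of each proteasome gene in ADV over LD mice (point) with its 95% interval (line), by class, where filled points passed the test. All 7 beta ring genes lie to the right of 0, while the lid genes lie on both sides of 0 and Psme4 lies farthest to the left, at -0.20.

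The beta ring carries the catalytic sites, and the log2 fold changes of its 7 genes were all above 0, with a median of 0.12 and 2 calls. Psmb5, which encodes the subunit with chymotrypsin-like activity and the main target of proteasome inhibitor drugs, was at 73.3, 80.1 and 86.5 FPKM (lowest, median and highest mouse) in the LD group and at 83.0, 88.6 and 121 FPKM in the ADV group. Every ADV mouse exceeded the LD median and 12 of 16 the highest LD mouse, although the groups overlapped. Its log2 fold change was 0.19 (SE 0.044, edgeR quasi-likelihood FDR 0.0073), a fold of 1.14. Psmb4, a structural beta subunit without a catalytic site, was at 63.3, 68.5 and 73.9 FPKM in LD mice and 69.9, 75.7 and 93.2 FPKM in ADV mice. Again all 16 ADV mice exceeded the LD median, 10 of them every LD mouse, and its change was 0.13 on the log2 scale (SE 0.035, edgeR FDR 0.0202). These genes lie at chr14:54851576-54855479 and chr3:94791404-94794272 in GRCm39, both on the minus strand.

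The other catalytic genes had fold changes of the same sign that did not pass the test. Psmb6, the caspase-like subunit, was at 108, 115 and 128 FPKM in LD mice and 111, 125 and 176 FPKM in ADV mice, and 14 of the 16 ADV values lay above the middle LD value. Its log2 fold change was 0.14 (SE 0.048, edgeR FDR 0.0544). Psmb7, the trypsin-like subunit, was the most abundant core gene, at 118, 126 and 137 FPKM in LD mice and 120, 133 and 161 FPKM in ADV mice. Its groups overlapped, and its log2 fold change was 0.06 (95% interval -0.01 to 0.13, edgeR FDR 0.244). The remaining beta genes were Psmb3 at 0.12, Psmb2 at 0.09 and Psmb1 at 0.08, with edgeR FDRs of 0.0837, 0.0958 and 0.129.

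The alpha ring forms the gate of the core, and none of its 7 genes was called. Log2 fold changes ran from -0.07 to 0.13 with a median of 0.04, and 6 of 7 were above 0. The highest were those of Psma7 (0.13, edgeR FDR 0.0612) and Psma5 (0.11, edgeR FDR 0.0649), each with 15 of 16 ADV values over the LD median. Psma3 was the only core gene below 0, at 28.1, 30.3 and 33.5 FPKM in LD mice and 25.1, 29.5 and 32.2 FPKM in ADV mice. The LD median was exceeded in 3 of 16 ADV mice, and the log2 fold change of -0.07 (SE 0.034) had an edgeR FDR of 0.135. Psma2, the least abundant core gene at a mean of 19.8 FPKM, and Psma6, the most abundant alpha gene at 77.6 FPKM, had log2 fold changes of 0.04 and 0.01. The rows of Psma2 and Psma3 were the longest of the core, at 2896 and 2825 exon bases, where the others had 755 to 1747.

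In the base of the regulatory particle, neither the 6 ATPase genes nor the 3 non-ATPase genes held a call. Over the ATPase genes the log2 fold change ran from -0.06 for Psmc6 to 0.08 for Psmc5, with a median of 0.07. Psmc3, the most abundant ATPase gene, was at 94.9, 105 and 112 FPKM in LD mice and 102, 110 and 142 FPKM in ADV mice, with a log2 fold change of 0.08 (edgeR FDR 0.184). Psmc6 had the lowest GC content of all members (37.6%) and was at 31.1, 33.7 and 40.6 FPKM in LD mice and 28.99, 33.1 and 37.1 FPKM in ADV mice. Its edgeR FDR was 0.281. Psmd1 and Psmd2, the large scaffolds of the base, had log2 fold changes of -0.04 and 0.02, and the ubiquitin receptor gene Psmd4 had 0.08 (95% interval -0.01 to 0.17). Their intervals reached no higher than 0.17 on the log2 scale, so a larger rise lies outside the 95% interval of each.

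Of the 8 lid genes, 1 was called and the others were spread around 0, with a median log2 fold change of 0.02. Psmd11, a scaffold subunit of the lid, at chr11:80319451-80364074 in GRCm39 on the plus strand, was at 32.4, 34.96 and 40.02 FPKM in LD mice and 34.3, 40.4 and 47.6 FPKM in ADV mice. The groups overlapped, and 14 of 16 mice under advances exceeded the LD median, 8 of them every LD mouse. Its log2 fold change was 0.17 (SE 0.047, edgeR FDR 0.0243). Psmd14, the deubiquitinase of the lid, was its least abundant gene and had a log2 fold change of -0.02 (95% interval -0.10 to 0.06), and Psmd6 had -0.04 (edgeR FDR 0.460). Psmd3 was at 0.08 and Psmd7 at 0.03. Psmd8 was the most abundant member, at 96.3, 137 and 165 FPKM in LD mice and 97.2, 135 and 177 FPKM in ADV mice. It had the widest spread between mice of these 8, with an SD of 19.8 in LD and 20.2 FPKM in ADV mice, and its log2 fold change of 0.01 had an SE of 0.081.

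**Figure D2:**
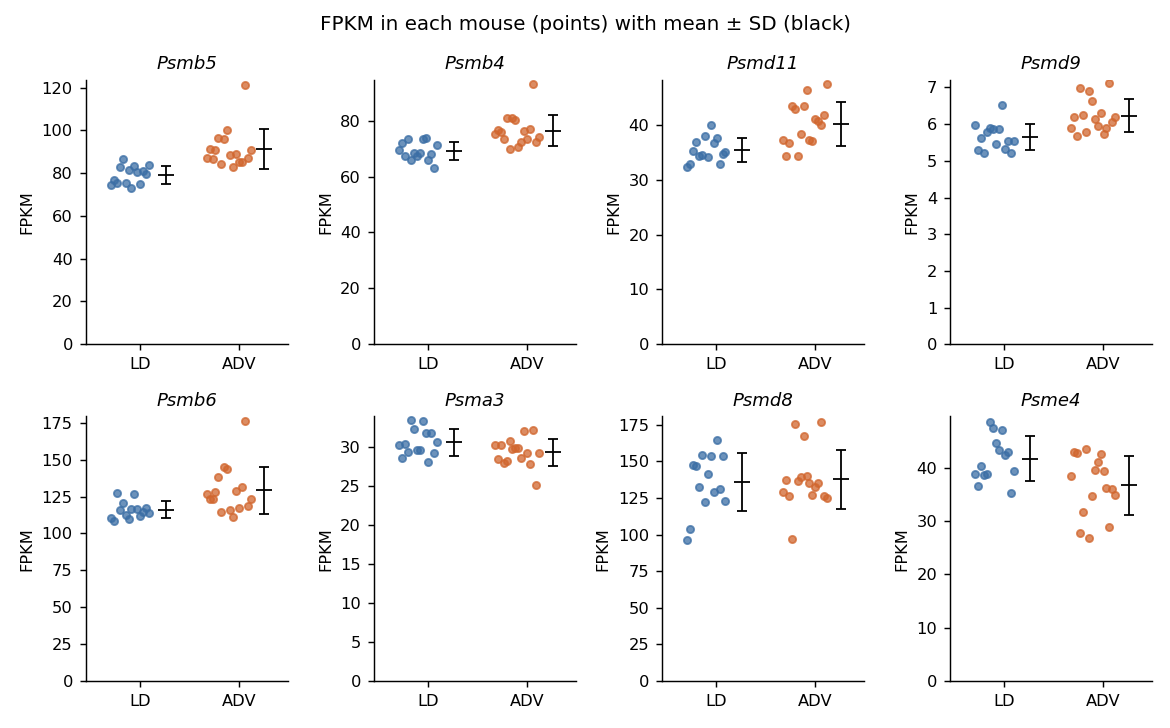
FPKM of 8 proteasome genes in each mouse (points), with the mean and SD of the group in black, for LD (n = 14) and ADV (n = 16). For Psmb5, Psmb4 and Psmd9 every ADV mouse is above the LD median, for Psmd8 the groups overlap over most of their range, and for Psme4 the lowest points are ADV mice.

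The assembly chaperones are not part of the finished complex. Those among the members had means from 3.85 FPKM (Psmd5) to 11.3 FPKM (Psmg2), below the lowest subunit, Psma2, at 19.8 FPKM. Among those of the base, Psmd9, at chr5:123366253-123388194 in GRCm39 on the plus strand, was at 5.22, 5.58 and 6.53 FPKM in LD mice and 5.68, 6.17 and 7.12 FPKM in ADV mice. The LD median was exceeded in all 16 ADV mice and the highest LD mouse in 4, and the log2 fold change was 0.13 (SE 0.036, edgeR FDR 0.0267). Psmd5 and Psmd10, the other two base chaperones, had log2 fold changes of 0.08 each and were not called. Psmd5 was the least abundant member, at a mean of 3.85 FPKM. Of the 4 chaperones of core assembly, Psmg3 had the largest log2 fold change of all members, 0.20, but with an SE of 0.079 and an edgeR FDR of 0.0889. It was at 4.18, 5.24 and 6.42 FPKM in LD mice and 4.45, 6.05 and 8.21 FPKM in ADV mice. Psmg4 was at 0.12, Psmg1 at 0.01 and Psmg2 at -0.02 on that scale.

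The activators open the core gate in place of the regulatory particle, and neither they nor the inhibitor gene were called. Psme4, which encodes PA200, a mostly nuclear activator, had the most negative log2 fold change of all members, -0.20 (95% interval -0.34 to -0.06, edgeR FDR 0.0691). It was at 35.2, 41.4 and 48.6 FPKM in LD mice and 26.8, 37.3 and 43.5 FPKM in ADV mice, and just 4 of 16 mice of the ADV group exceeded the LD median. Leaving out ADV mouse 22 or ADV mouse 26, each in its own fit, brought its FDR under 0.05. In the other 28 fits with a mouse removed its FDR stayed above that limit, up to 0.118 without LD mouse 28. Psme4 was called in none of 12 other settings. Its log2 fold change was -0.13 with the GC trend removed (edgeR FDR 0.206) and -0.13 with the clock score in the fit (edgeR FDR 0.641). The genes of the interferon-inducible activator, Psme1 and Psme2, had log2 fold changes of 0.003 and 0.06, Psme3 had 0.02 and the inhibitor gene Psmf1 had 0.02. Their 95% intervals all covered 0, and that of Psme1 ran from -0.12 to 0.12.

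Core and regulatory particle were then set side by side in each mouse, as the mean log2 CPM (TMM-normalized counts scaled to library size) of their tested genes. The core mean was 6.23 ± 0.04 (SD, n = 14) in LD and 6.30 ± 0.10 (n = 16) in ADV mice, and 14 of 16 ADV mice exceeded the LD median, 4 of them every LD mouse. The regulatory particle mean was 6.88 ± 0.06 in LD and 6.92 ± 0.09 in ADV mice, where 10 of 16 exceeded the LD median and 2 every LD mouse. Core minus regulatory particle was -0.66 ± 0.05 in LD and -0.61 ± 0.05 in ADV mice, a shift of 0.04 that is smaller than 1 SD of either group. This value exceeded the LD median in 11 of 16 ADV mice and every LD mouse in 5. By gene, the median log2 fold change was 0.09 over the core, with 13 of 14 genes above 0, and 0.04 over the regulatory particle, with 12 of 17. These means are not scaled by transcript length, so only their change between mice is compared, and no test was run on them.

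**Figure D3:**
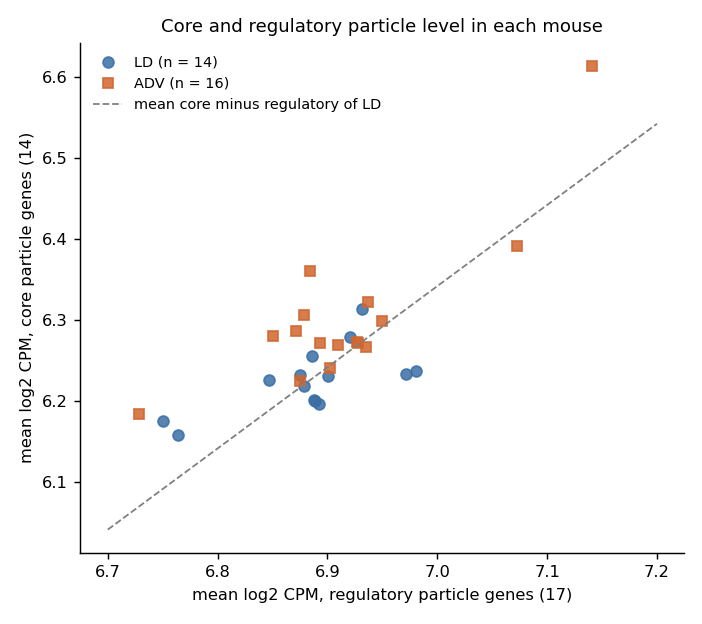
Mean log2 CPM of the 14 core genes (vertical axis) against that of the 17 regulatory particle genes (horizontal axis), 1 point per mouse, and the dashed line has the mean core minus regulatory value of LD mice (-0.66). Most ADV mice lie on or above the line, and ADV mouse 34 stands apart at the upper right, at a core mean of 6.61.

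ADV mouse 34 had the highest core mean, 6.61, where the next ADV mouse had 6.39. It was the highest library of all for 11 of 14 core and 11 of 17 regulatory particle genes, and its exon share of 92.67% was the highest too. Without it the same number of members was called (4), while over all genes 594 were called higher and 521 lower. Psmb5 was at a log2 fold change of 0.16 (edgeR FDR 0.0027) and Psmb4 at 0.11 (edgeR FDR 0.0165). The median over the core was then 0.07 (from 0.09), and that over the regulatory particle was 0.02 (from 0.04), with 31 of 43 members above 0 (beside 51.0% of all genes), 13 of 14 in the core and 11 of 17 in the regulatory particle.

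The spread between mice was wider in the ADV group. The coefficient of variation of FPKM was larger in the ADV group for 36 of 43 members, among them 13 of 14 core and 15 of 17 regulatory particle genes, beside 65.0% of all genes tested. Its median went from 5.20% to 7.31% over the core and from 4.67% to 7.40% over the regulatory particle. Over the other classes it went from 8.90% to 10.99%, and over all genes from 12.4% to 14.3%. Without ADV mouse 34, a comparison added after its values were seen, it was larger in the ADV group for 30 of 43 members (9 of 14 core and 13 of 17 regulatory particle genes), beside 58.5% of all genes, and the ADV medians were 5.36% over the core and 5.83% over the regulatory particle. Much of the wider spread of the core thus came from 1 mouse, and no test of the spread was run.

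Between mice of the same schedule, the subunit genes moved together. With the group means removed, the median Pearson r over 30 libraries was 0.596 for the 91 pairs of core genes, 0.554 for the 136 pairs within the regulatory particle and 0.509 for the 238 pairs between them. Over all pairs of tested genes the median was -0.004. Without ADV mouse 34 the medians over 29 libraries were 0.336 within the core, 0.507 within the regulatory particle and 0.332 between them, so this mouse carried a large share of the correlation of the core genes. The 12 genes of the other classes were little correlated with each other (median 0.081) or with the subunits (median 0.137, and -0.0097 without ADV mouse 34). Over all 30 libraries, Psmc3, Psmb7 and Psmc5 had the highest median r with the other core and regulatory genes, 0.71, 0.68 and 0.68. Psmc6, Psma1 and Psmd11 had the lowest of the subunits, 0.10, 0.11 and 0.18, so Psmd11 was called between the groups while it followed the other subunits little within them. These pairs share libraries, depth and base composition, and the values are given as a description.

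**Figure D4:**
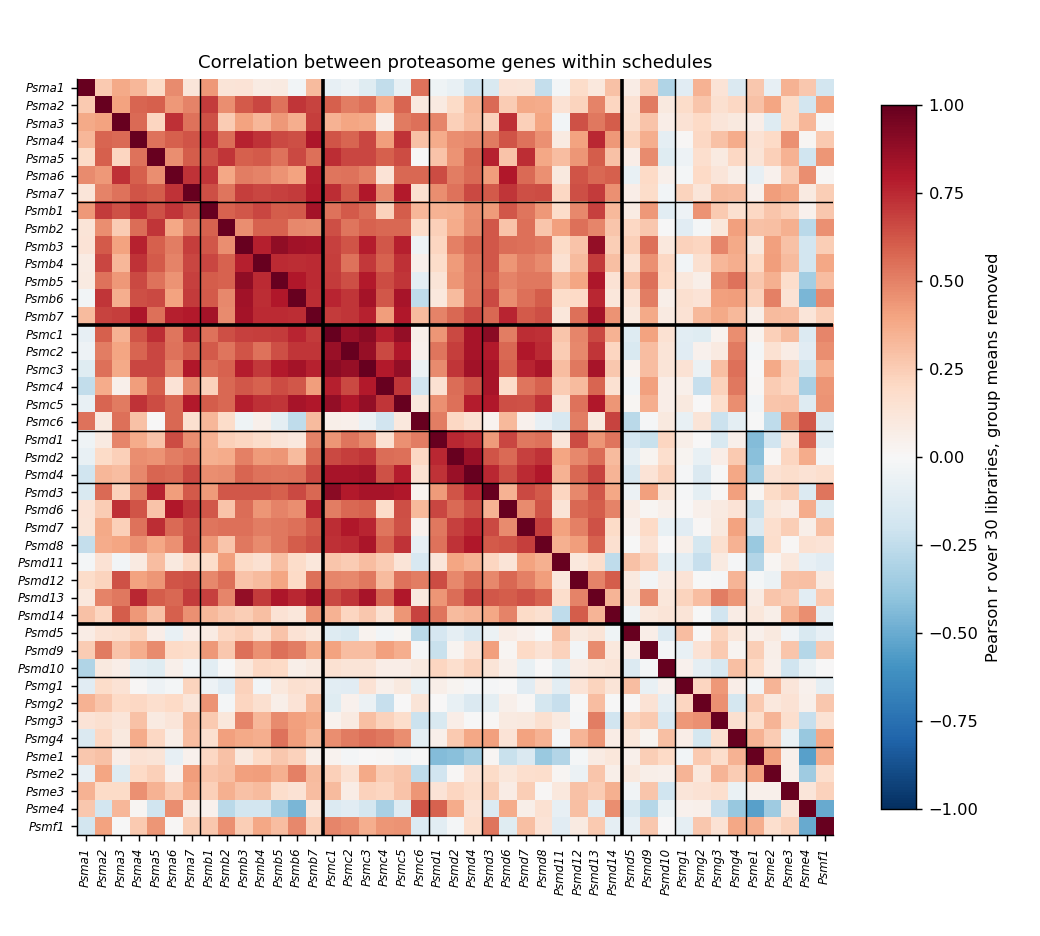
Pearson r between each pair of the 43 members over 30 libraries with group means removed, with thick lines between core, regulatory particle and other classes, and thin lines between classes. Most pairs inside the upper left block of subunits are positive, while Psma1, Psmc6 and Psmd11 and the rows of the other classes are pale or blue against many of them.

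The size of the change went with the GC content of the transcript. Across the 43 members, Spearman's rho between GC content and log2 fold change was 0.504, and across all genes tested it was 0.473. After the GC trend of each library was removed, rho was -0.402 across the members and -0.022 across all genes. The number of calls was again 4, beside 2.44% of all genes higher and 2.57% lower, but only Psmb5 and Psmd11 were called in both fits. Psma1 (0.18, edgeR FDR 0.0126) and Psmb1 (0.16, edgeR FDR 0.0474), with GC contents of 42.3% and 44.0%, took the place of Psmb4 and Psmd9. All 14 core genes were then above 0, with a median of 0.09. The regulatory particle had a median of 0.02 with 11 of 17 above 0. Over all genes 46.5% were above 0, with a median of -0.009. Psma3, Psmc6 and Psmd14 changed sign with this correction, to 0.07, 0.11 and 0.10.

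**Figure D5:**
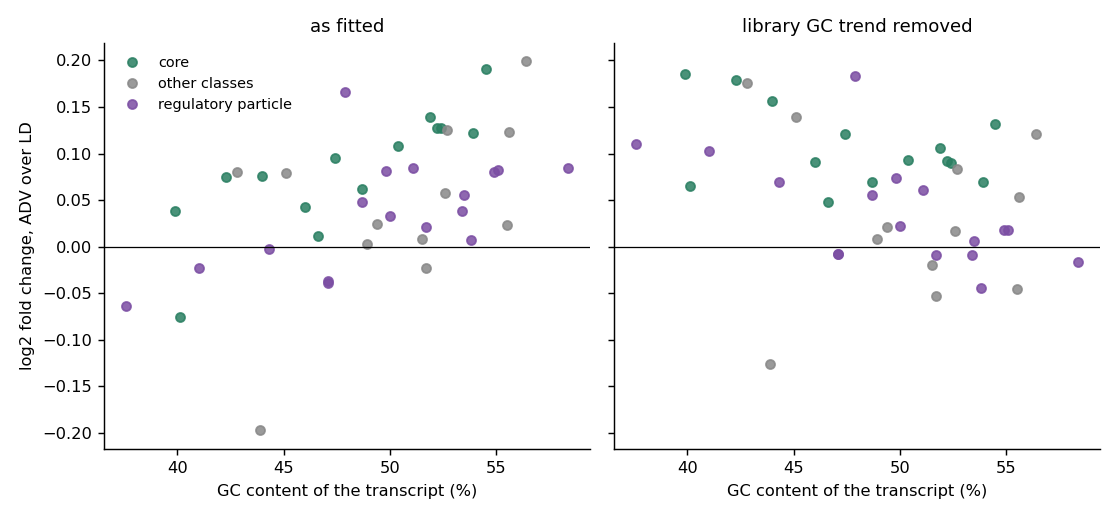
Log2 fold change of each member (ADV over LD) against the GC content of its transcript, as fitted (left) and after the GC trend of each library was removed (right). The upward slope on the left (Spearman's rho 0.504) is downward on the right (-0.402), and the core genes lie above 0 at every GC content on the right.

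Calls were lost when measures that differed between the groups entered the fit. With the exon share of each library as a covariate in edgeR, 0 members were called (beside 0.266% of all genes higher and 0.108% lower), 3 members had an unadjusted p under 0.05, and the log2 fold changes were 0.06 for Psmb5, 0.04 for Psmb4, 0.16 for Psmd11 and 0.06 for Psmd9. The median over the core was then 0.0078 and that over the regulatory particle -0.02, with 8 of 14 core and 4 of 17 regulatory particle genes above 0. A score of clock gene expression, which ran from -3.17 to 1.102 in LD and from -1.34 to 2.30 in ADV mice, was the other such measure. With it as a covariate 0 members and 0 of all genes (0% in each direction) were called by edgeR, 9 members had an unadjusted p under 0.05, and the log2 fold changes were 0.17 for Psmb5, 0.13 for Psmb4, 0.22 for Psmd11 and 0.12 for Psmd9. For the counts at an unadjusted p under 0.05 and above 0 in these fits, no share over all genes is given. Whether they are particular to the proteasome genes was not tested. The group difference and these measures cannot be told apart in full with this design.

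Trim63, the ubiquitin ligase gene induced in atrophying muscle, served to ask which members moved with it between mice of the same schedule. The slope of expression on Trim63 (log2 per log2 unit, with the group in the fit) passed the test for 1 of 43 members, Psmd7 of the lid, at 0.07 (SE 0.020, edgeR FDR 0.0276), beside 4.27% of all genes with a positive slope called and 4.02% with a negative one. Psmd2 had a slope of 0.06 (edgeR FDR 0.0522) and Psmd11 of 0.07 (edgeR FDR 0.148). At an unadjusted p under 0.05, with a slope of either sign, there were 6 of 43 members, beside 22.4% of all genes. They were 5 of 17 regulatory particle genes, 0 of 14 core genes and 1 of the 12 genes of the other classes. Slopes were above 0 for 16 of 17 regulatory particle and 12 of 14 core genes, with medians of 0.04 and 0.02, beside 50.2% of all genes. This count of signs was not tested. The core median was 0.0121 without ADV mouse 34, 0.0334 without ADV mouse 30 and 0.0329 without ADV mouse 35. Without ADV mouse 30 and ADV mouse 35, the libraries farthest from the median of Trim63, Psmd7 and Psmd2 both passed (beside 3.03% of all genes with a positive and 3.07% with a negative slope) and the medians were 0.07 and 0.05, while without LD mouse 21 or LD mouse 35 none did. In ADV mice alone 0 members passed by edgeR (beside 0.441% and 0.249% of all genes), with 1 at an unadjusted p under 0.05. In LD mice alone Psmd11 passed and Psmd7 did not (beside 2.64% and 2.07%), and the difference between the groups' slopes was not tested.

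No member had a slope on the clock gene score within the schedules that passed the test, whether fitted by edgeR on all libraries or on either group alone. In all libraries 0 members had an unadjusted p under 0.05, and 0.0914% of all genes were called with a positive and 0.125% with a negative slope. These shares were 0.15% and 0.183% in LD mice alone, with 2 members at an unadjusted p under 0.05, and 0 genes and 0.00831% in ADV mice alone, with 0 members. In all libraries, the members with the smallest p were Psmd2, Psmd4 and Psme1. Their slopes were -0.03, -0.04 and 0.05 per unit of score (edgeR FDRs 0.621, 0.673 and 0.676). Median slopes were -0.005 per unit of score over the core and -0.01 over the regulatory particle, where 16 of 17 genes were below 0 beside 49.7% of all genes. In ADV mice alone the core median was 0.01 and the regulatory particle median -0.0046, with 7 of 17 regulatory particle genes above 0.

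Around the proteasome, 32 of 33 listed genes for its assembly, regulation and ubiquitin supply were tested, and 2 of those described here were called lower (beside 5.2% of all genes). Ube3c, a ubiquitin ligase gene that acts at the proteasome, fell by 0.14 on the log2 scale (edgeR FDR 0.0177). This call was lost with the exon share in the fit (-0.08, edgeR FDR 0.357), with the clock score (edgeR FDR 0.353) and with the label number as a replicate block (edgeR FDR 0.0819). Ngly1, whose product removes glycans from the Nfe2l1 protein before it can act, fell by 0.14 as well (edgeR FDR 0.0338), but of 30 fits with 1 mouse removed, 7 put its FDR over 0.05. The call was also lost in 8 of 12 other settings, among them the removal of the GC trend, which left -0.05 (edgeR FDR 0.590). Nfe2l1 itself was abundant, at 163, 190 and 209 FPKM in LD mice and 180, 206 and 234 FPKM in ADV mice, and its log2 fold change of 0.11 had an edgeR FDR of 0.0510. It passed in 4 of 12 other settings, DESeq2 among them (FDR 0.0242), and with the GC trend removed it was at 0.05 (edgeR FDR 0.4052). Pomp, the maturation factor of the core, had 0.06 (edgeR FDR 0.323). The immunoproteasome genes, which replace the catalytic subunits in immune cells, stayed low, with highest values of 5.11 FPKM for Psmb8, 4.24 for Psmb9 and 8.55 for Psmb10, and none was called. On the Trim63 slope, Zfand5, which encodes an activator of the proteasome, had 0.28 log2 per log2 unit and passed the test.

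Overlapping genes limit some of these values. In the GENCODE vM39 annotation, where 42 of the members were found and Psmd8 was not checked, 20 share exon bases with another gene, and 5 do so over more than 20% of their exon bases. The largest shares were 51.9% of Psme1 with Emc9, 34.9% of Psmb7 with Nek6 and 32.6% of Psmd13 with Cox8b, each on the other strand. Psmg3, which had the largest log2 fold change of all members, shares 26.7% with the protein-coding gene Gm26938 on its own strand. Of the members called, Psmb4 shares 16.3% with a long noncoding gene on the other strand and Psmb5 shares 6.4% with a microRNA gene on its own strand, while Psmd9 and Psmd11 share none.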

How the data were processed

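Poly(A) RNA of 30 mice was measured, and groups were taken from the labels. The authors mapped the trimmed reads to GRCm39 with STAR 2.7.10a, removed low mapping quality and counted exons with HOMER 4.11 (versions from the submitters' processing notes), which gave the deposited estimated counts, 0.5 per mate and not normalized. The deposited FPKM values were made by the authors from the same counts. The kit was stranded, whether counting used the strand is not given in the sources used here, and reads shared with near-identical gene copies were not resolved. No other column was left out.

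Of 57186 rows, the longest expressed row per symbol was kept, and 14.8% of the counts were not whole and were rounded. Genes with a mean over 20 reads and over 0.5 FPKM (12030) were fitted by the quasi-likelihood test of edgeR 4.0.16 in R 4.3.3 after TMM scaling, with Benjamini-Hochberg adjustment over all of them and calls at an FDR under 0.05. No fit dropped or imputed a mouse unless stated. Standard errors were derived from the F statistic, and 95% intervals are approximate. Counts of any pair of libraries in a group differed with a chi-square of at least 10.6 per degree of freedom, so every library counted as its own replicate, and each was a separate mouse. The covariates were the log2 CPM of Trim63 and a clock score, the mean z of 5 genes (Bmal1, Npas2, Clock, Cry1, Nfil3) minus that of 7 (Dbp, Nr1d1, Nr1d2, Per3, Ciart, Tef, Hlf). GC content came from GENCODE vM39 transcripts (a spline with 4 degrees of freedom per library). Alternatives were DESeq2 1.42.0, limma 3.58.1 on log2 FPKM with 0.1 or 1 added, other size factors, no filter, summed rows, covariates, the label number as a block and leaving out each mouse. The spread, the correlations and the counts above 0 without ADV mouse 34 were added after the data were seen. The scripts were tested on simulated data.

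Members, classes, lists, motifs and covariates were chosen with earlier results of these data known. Genes named with values were all members called, the largest and smallest changes in the core, the regulatory particle and the other classes, the catalytic subunits, the most and least abundant of each class, those with the smallest p for each slope, and, of the list around the proteasome, Nfe2l1, Pomp and those called, some of which are not reported here. Psma1, Psma5, Psma7, Psmb2, Psmb3, Psme2, Psme3, Psmd10, the immunoproteasome genes and Zfand5 were named after their values were seen.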

Additional observations from a re-analysis of the deposited data

How the results depend on the processing

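The number of members called higher in the ADV group was 4 with relative log expression size factors (beside 5.65% of all genes) and with summed rows (5.61%), 3 without the filter (2.53%), 7 with library size alone (6.44%) and 8 with limma on log2 FPKM, with either 0.1 (7.15%) or 1 (7.13%) added first. It was 0 with a fold change over 1.3 as well, 0 with exon share added to the fit and 0 with the clock score added. With 1 mouse left out in turn, 4 to 6 were called higher and 0 to 1 lower (Psme4, without ADV mouse 22 or ADV mouse 26). Over all genes, the fits with 1 mouse left out called 439 to 776 higher and 396 to 766 lower. Psmb5, Psmb4, Psmd11 and Psmd9 were called in all 30 of these fits, with FDRs of at most 0.0148, 0.0349, 0.0405 and 0.0482. The median over the core ran from 0.0749 to 0.0954, that over the regulatory particle from 0.0179 (without ADV mouse 34) to 0.0473, and core minus regulatory particle from 0.0379 to 0.0509. With the exon share as a covariate the core median was 0.0078 and core minus regulatory particle per mouse was 0.0213. The latter was 0.0212 with the clock score, where the regulatory particle median was 0.0859, and 0.0678 with the GC trend removed. The cause of these differences was not tested.

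Label numbers are shared by 14 pairs of mice, and 6 pairs correlated above 0.1 (from -0.26 to 0.43), with 3 LD mice correlating best with their own number, so the numbers were not taken as pairs. With the number as a replicate block 1 member, Psmb5, was called, beside 2.39% of all genes. The same 28 libraries without the block gave 2 (Psmb5 and Psmb4), beside 2.75%. Psme1 was at -0.0072 with the block and -0.0087 without it.

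Over 34 named genes and 12 settings, 341 of 408 values kept their direction and their side of the threshold, 31 lost it, 9 gained it and 27 changed sign. Sign changes with the GC trend removed were Psma3 to 0.0652, Psmc6 to 0.1097, Psmd14 to 0.1031, Psmd2 to -0.0085, Psmd3 to -0.0159, Psmd8 to -0.0441, Psmf1 to -0.0454 and Psmg1 to -0.0199. With the clock score they were Psmd1 to 0.0104, Psmd14 to 0.0064, Psme1 to -0.096 and Psmf1 to -0.012. With the exon share they were Pomp to -0.0376, Psma2 to -0.0267, Psma6 to -0.0299, Psmb7 to -0.0187, Psmc3 to -0.0196, Psmc5 to -0.0078, Psmd2 to -0.0031, Psmd7 to -0.0208, Psmd8 to -0.1022, Psme1 to -0.1035, Psmf1 to -0.0674, Psmg1 to -0.0303 and Psmg4 to -0.0065. With 1 mouse left out, Psmd8 ran from -0.026 to 0.0384, Psme1 from -0.0203 to 0.0285, Psmf1 from -0.0091 to 0.0409 and Psmg1 from -0.0105 to 0.0414.

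The Trim63 slope was called for 0 members in ADV mice alone (beside 0.441% of all genes with a positive and 0.249% with a negative slope). With the GC trend removed it was called for 2 (beside 5.83% and 4.44%). Without the libraries farthest from the median it was called for 2 (beside 3.03% and 3.07%). With 1 mouse left out, 0 to 2 were called (0 without LD mouse 21 or LD mouse 35). Of all genes, these fits called 328 to 596 with a positive and 335 to 564 with a negative slope. The clock score slope was called for 0 members in every setting. Psmg4, Psmg3 and Psmg1 had mean reads of 74.1, 123 and 136, the fewest of the core chaperones, and Psmg3 did not pass at a fold change like that of Psmb5.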
